A study of Rattus norvegicus with 36 samples.

Results

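Sora, read here as sorafenib from knowledge of the study, was tested on rat precision-cut lung slices that had also received TGFb. Such slices are cut from lung and cultured alive, so that the tissue's cells stay together without circulation. The comparison is formed by the 6 RNA sequencing libraries of slices with TGFb and Sora and the 6 of slices with TGFb and no drug, both at the labelled time 72. They were found by their titles and make up 12 of the 36 libraries of the study. The other groups, of 6 libraries each, are also used below: slices with TGFb and Nint at 72, slices with TGFb and Pirf at 72, untreated slices at 72 and untreated slices at 0. Nint and Pirf are read as nintedanib and pirfenidone. The labels carry no dose, no unit of time, and no strain, sex or age of the rats. They do not say whether the 6 replicates came from separate animals, and the p-values below reflect nothing but the scatter among these libraries, which may be technical.

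Sorafenib blocks several kinases, among them the RAF kinases of the ERK pathway and the receptors for vascular endothelial growth factor and platelet-derived growth factor. TGFb acts through receptor kinases and SMAD proteins and drives fibroblasts to become matrix-producing myofibroblasts, and signals from platelet-derived growth factor support the same cells in fibrotic lung. Nintedanib also blocks the receptors for these growth factors and is used against lung fibrosis, as is pirfenidone, whose mode of action is less well defined. The stated purpose of the study was to characterize the slices as a model for testing anti-fibrotic drugs. The comparison therefore asks which genes Sora moved in slices that also carried TGFb.

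The deposited tables list genes by Ensembl ID and do not pair them with names. The gene table at hand holds no Ensembl IDs, so 0 IDs could be paired with a symbol. Collagens, ERK targets, other pathways and cell type markers could thus not be looked up, and the labelled tissue could not be checked against marker genes. Genes are given by ID, at most 2 higher and 2 lower for each comparison. Levels of bulk tissue also cannot separate fewer cells of a type from less RNA per cell.

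Total counts of the 12 libraries lay between 21288853 and 32932981. They averaged 27990000 ± 3690000 with Sora and 24480000 ± 3220000 with TGFb alone (SD, n = 6 each), which was not a resolved difference (two-sided exact permutation p = 0.106, adjusted p = 0.265 over 5 library measures). The TMM scaling factor, which corrects for RNA composition, averaged 1.034 ± 0.0436 with Sora and 0.9636 ± 0.051 in the libraries without drug (exact permutation p = 0.0346, adjusted p = 0.173). Genes outside the deposited table of expressed protein-coding genes held 11.85% ± 1.26 of counts with Sora and 11.67% ± 0.673 with TGFb alone (exact permutation p = 0.758). The number of genes with a count and the share of counts in the 10 most abundant genes also failed the test (adjusted p = 0.652 each). No 2 libraries of either group were alike enough to be one library deposited again, since each pair differed by at least 4.36 times the counting noise.

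Sora changed 2406 of 15644 genes tested against TGFb alone, or 15.4%, at an adjusted p under 0.05 (edgeR quasi-likelihood test, Benjamini-Hochberg adjustment over all genes tested). Of these, 1096 were higher with Sora (7.01% of genes tested) and 1310 were lower (8.37%). Most changes were small. The median log2 fold change was 0.44 among genes called higher and -0.42 among genes called lower, against 0.004 over all genes tested. A change of at least 1.5-fold was seen in 423 higher and 435 lower genes. Among the calls, 274 (1.75% of genes tested) reached 2-fold, 116 of them higher (0.741%) and 158 lower (1.01%), and 6 higher and 11 lower genes reached 4-fold. Both DESeq2 and limma-voom called 2284 of the 2406 genes in the same direction, 1004 higher and 1280 lower.

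**Figure D1:**
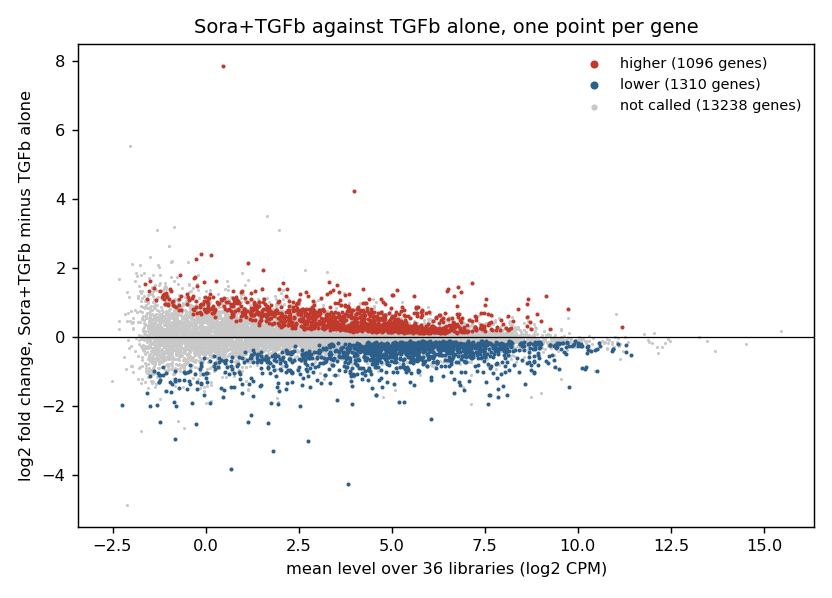
Each point is one of the 15644 genes tested; the horizontal axis is its mean level over the 36 libraries in log2 CPM and the vertical axis its log2 fold change, Sora with TGFb minus TGFb alone. Red points were called higher (1096) and blue points lower (1310), grey points were not called, and blue points outnumber red ones at the right, where abundant genes lie.

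The balance of higher and lower calls depended on the processing. Without scaling factors, on total counts alone, 2173 genes were called higher and 684 lower, so that the higher share of calls was 76.1% in place of 45.6%, and the log2 fold change of the median gene shifted by 0.10. All 1096 higher genes and 684 of the lower ones were called under both scalings. The other lower calls were lost on total counts alone. With DESeq2's size factors in edgeR (RLE), 1087 genes were called higher and 1331 lower. Higher calls also outnumbered lower ones without a filter on low counts, at 1111 against 772, and with limma on the deposited log2 CPM, at 1136 against 1101.

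The number of calls also rested on single libraries. It ranged from 1640 without TGFb-alone replicate 4 to 3232 without Sora replicate 5. The lower calls fell to 862 without Sora replicate 3 and to 870 without Sora replicate 2. A set of 1276 genes, 580 higher and 696 lower, was called in the fit of 36 libraries and again in each of the 12 fits that left out 1 library of the 2 groups. In a fit of these 12 libraries alone 1423 genes were called, and 410 genes, 187 higher and 223 lower, differed by more than 1.2-fold by edgeR's test against that fold.

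The calls were spread unevenly over expression levels, as seen in 4 bins of 3911 genes each, ordered by mean log2 CPM (counts scaled to library size). In the lowest bin 233 were higher with Sora and 151 lower. In the second bin 357 were higher and 212 lower, and in the third 300 and 371. In the highest bin only 206 were higher and 576 lower. Among the 100 most abundant genes 1 was higher and 30 were lower, none of them by 2-fold. The median absolute log2 fold change of called genes was 0.90 in the lowest bin and 0.29 in the most abundant one. The median standard error was 0.30 in the lowest bin against 0.07 in the highest. A gene in the lowest bin thus needed a larger fold change to be called. The sizes of called genes therefore cannot show whether less abundant genes moved more.

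Without scaling factors the highest bin held 487 higher and 258 lower calls, so the excess of lower calls there turned into an excess of higher ones. In that setting the median log2 fold change still stood lower in the highest bin, at 0.05, than in the least abundant one, at 0.17, where the scaled values were -0.06 and 0.07. The highest bin held more lower than higher calls in each of the other 20 alternatives, with 298 lower against 227 higher where no filter on low counts was applied and 63 against 24 in the test against a fold of 1.2. The lower calls there numbered 380, 371 and 378 without Sora replicate 1, 2 or 3, 364 without TGFb-alone replicate 4, and 281 in the fit of 12 libraries. These alternatives for the bins were added after the data were seen.

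**Figure D2:**
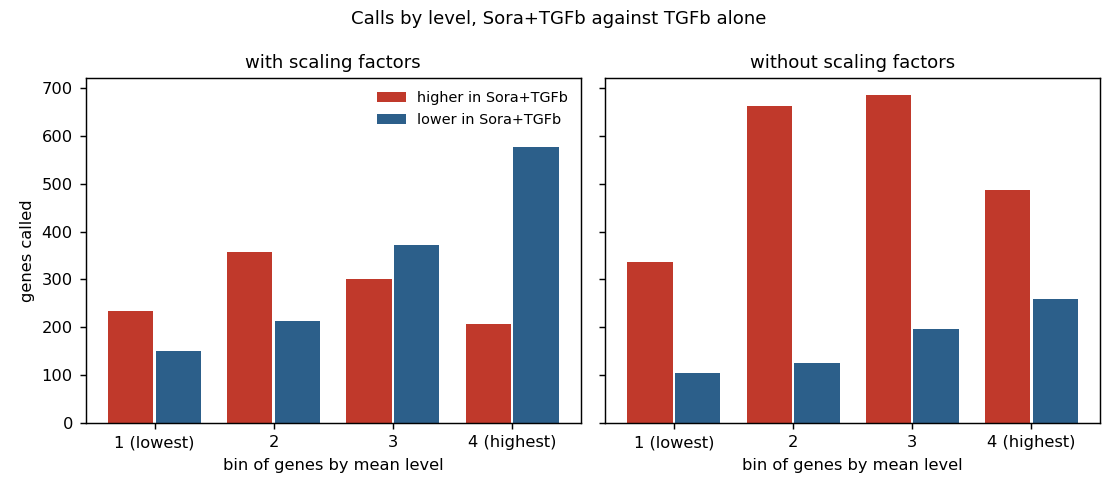
Bars give the number of genes called higher (red) or lower (blue) with Sora and TGFb than with TGFb alone, in 4 bins of 3911 genes by mean level, with TMM scaling factors on the left and on total counts alone on the right. In the highest bin 206 genes are higher and 576 lower with scaling, and 487 are higher and 258 lower without it.

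The genes called lower together held 14.77% ± 0.481 of all counts tested with Sora and 18.41% ± 0.453 with TGFb alone (SD, n = 6 each). The same genes held 17.05% ± 0.259 with Nint, 14.56% ± 0.201 with Pirf, 15.7% ± 0.686 in untreated slices at 72 and 12.18% ± 0.396 at 0. The genes called higher held 4.45% ± 0.398 with Sora and 3.136% ± 0.302 with TGFb alone. They held 3.606% ± 0.195 with Nint, 4.051% ± 0.106 with Pirf, 4.099% ± 0.373 in untreated slices at 72 and 5.845% ± 0.278 at 0. These shares describe genes chosen by the same 12 libraries and were not tested.

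Of the 1164 genes tested that are outside the protein-coding table, 38 were higher and 44 lower with Sora, or 7.04%, against 16% of the 14480 genes in that table. These genes were also less abundant, with a median log2 CPM of 0.05 against 4.42, and their median standard error was 0.29 against 0.11. Whether their lower share of calls goes beyond that lower precision was not tested.

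The 6 Sora libraries did not overlap the 6 with TGFb alone for 727 genes, or 4.65% of genes tested, of which 267 were higher (1.71%) and 460 lower (2.94%) with Sora. Of these genes 651 were also called, so that 1755 called genes had overlapping groups. A larger change did not ensure separation. Groups were apart in 132 of the 274 called genes with at least a 2-fold change and in 8 of the 17 with at least a 4-fold change. The called genes with the highest and the lowest log2 fold change, 7.85 and -4.25, both had overlapping groups.

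The 4 IDs given for this comparison were the 2 highest and 2 lowest by log2 fold change among 600 eligible genes, which were called, had separate groups and reached a mean of 50 normalized counts in the higher one. Normalized counts are counts scaled to one common library size, and they are not corrected for gene length, so they are compared between libraries and not between genes. All 4 are in the protein-coding table.

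ENSRNOG00000025184 had normalized counts of 2.735 to 13.39 in Sora libraries (median 8.375), against 81.25 to 160.3 with TGFb alone (median 105.8). Every Sora library was below every TGFb-alone library, with a wide gap between them. The log2 fold change was -3.83 (SE 0.36, adjusted p = 1.37e-08, edgeR). Means were 8.109 ± 3.81 with Sora, 38.86 ± 7.86 with Nint, 23.01 ± 10 with Pirf, 114.7 ± 35.9 with TGFb alone, 7.384 ± 2.22 in untreated slices at 72 and 29.51 ± 19.9 at 0 (SD, n = 6 each), highest with TGFb alone and lowest in untreated slices at 72. The Sora level was below that of Nint (log2 fold change -2.26, SE 0.36, adjusted p = 0.00015) and of Pirf (-1.52, SE 0.36, adjusted p = 0.000955). It was not resolved from untreated slices at 72, with a log2 difference of 0.11 (95% interval -0.70 to 0.92, adjusted p = 0.873).

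ENSRNOG00000011946 had normalized counts of 18.05 to 26.78 with Sora (median 21.5), against 73.6 to 145.6 with TGFb alone (median 126.7). The Sora libraries formed a narrow band well below all TGFb-alone libraries. The log2 fold change was -2.46 (SE 0.30, adjusted p = 9.78e-07, edgeR). Sora, with a mean of 21.83 ± 3.1, was not resolved from Nint, with 17.67 ± 7.19 (SD, n = 6 each; log2 difference 0.30, 95% interval -0.33 to 0.93, adjusted p = 0.562). It was not resolved from untreated slices at 72 either, which had 26.17 ± 8.75 (log2 difference -0.26, 95% interval -0.88 to 0.36, adjusted p = 0.573). It lay below Pirf, at 44.22 ± 13.4 (log2 fold change -1.02, SE 0.30, adjusted p = 0.00596). Untreated slices at 0 had 82.66 ± 46.5, and their libraries, from 33.07 to 137.3, overlapped those of TGFb alone.

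ENSRNOG00000009342 had normalized counts of 44 to 103.2 with Sora (median 77.01), against 12.75 to 27.24 with TGFb alone (median 17.51). All Sora libraries were above all TGFb-alone libraries. Their log2 fold change came to 1.94 (SE 0.35, adjusted p = 0.00032, edgeR). The Nint libraries were split, with 2 of them at 56.5 and 79.79 inside the Sora range and 4 between 10.46 and 24.42. The Sora mean of 75.25 ± 23.6 still exceeded the Nint mean of 35.75 ± 26.6 (log2 fold change 1.07, SE 0.33, adjusted p = 0.0341). It also exceeded the Pirf mean of 25.43 ± 6.31 (1.56, SE 0.34, adjusted p = 0.000372). Untreated slices at 72 had 5.661 ± 4.47 and those at 0 had 262.2 ± 61. The means with Sora, Nint, Pirf and TGFb alone (19.6 ± 6.15) all lay between those of the 2 untreated groups.

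ENSRNOG00000050024 had normalized counts of 88.51 to 189.7 with Sora (median 153.2), against 0 to 79.01 with TGFb alone (median 20.42). The TGFb-alone libraries fell into separate levels, with replicates 2, 4 and 6 between 0 and 3.478 and replicates 1, 3 and 5 between 37.37 and 79.01. The log2 fold change was 2.15 (SE 0.68, adjusted p = 0.0293, edgeR). This call was lost in 9 of 21 alternatives, with adjusted p-values of 0.0505 to 0.0954, among them DESeq2, the fit of 12 libraries, the test against a fold of 1.2, and the fits without TGFb-alone replicate 2, 4 or 6 or Sora replicate 1, 3 or 4. In those 9 the log2 fold change was 1.89 to 2.15, but it was 3.66 with limma-voom and 3.93 with limma on the deposited log2 CPM, where the call held (adjusted p = 0.00101 and 0.0197). The calls of the other 3 IDs held in all 21 alternatives. The level was 146.7 ± 42 with Sora, 28.83 ± 24.2 with Nint, 84.09 ± 34.7 with Pirf, 33.07 ± 36.8 with TGFb alone, 3.948 ± 4.74 in untreated slices at 72 and 0.5806 ± 1.42 at 0 (SD, n = 6 each). Sora and Pirf libraries overlapped and were not resolved (log2 difference for Sora minus Pirf 0.80, 95% interval -0.50 to 2.11, adjusted p = 0.323, edgeR).

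**Figure D3:**
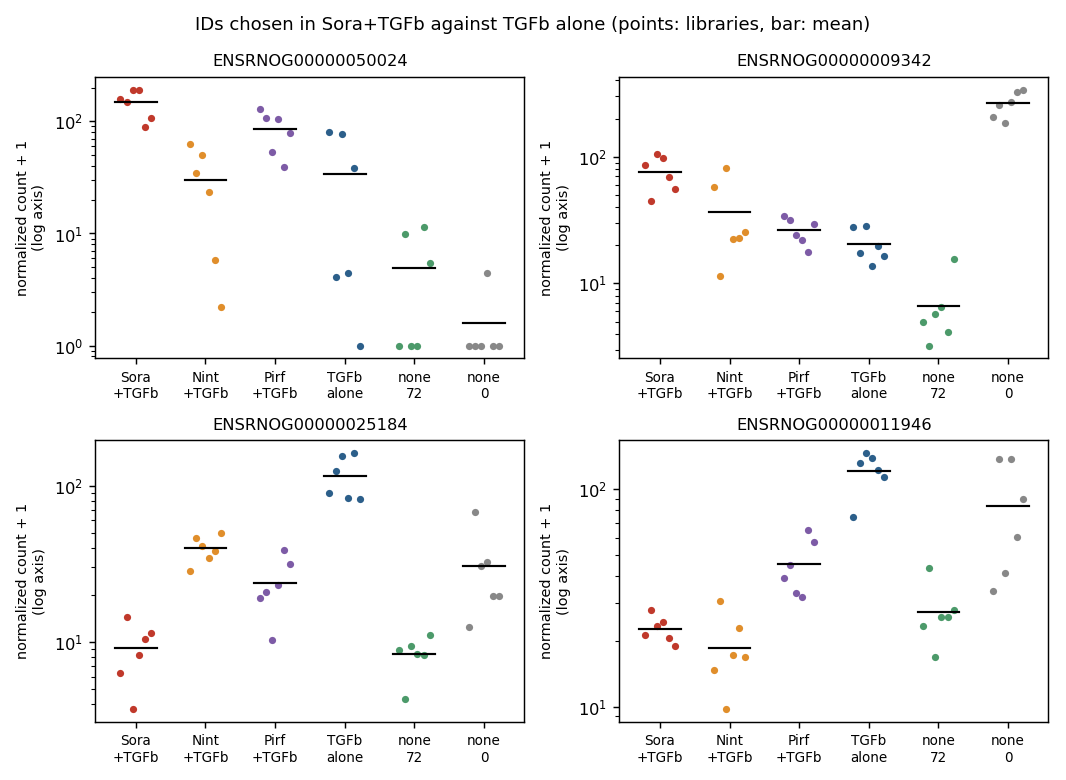
Each panel shows one of the 4 IDs chosen in the comparison of Sora with TGFb against TGFb alone; points are libraries (6 per group), black bars are group means, and the vertical axis is the normalized count plus 1 on a log axis. In the lower panels the Sora points lie near those of untreated slices at 72, and in the upper panels they lie above all points of TGFb alone. The rule that chose the IDs required separate Sora and TGFb-alone groups.

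With TGFb alone all 4 IDs were called higher than in untreated slices at 72. The groups were apart for ENSRNOG00000025184 (log2 fold change 3.94, SE 0.37, adjusted p = 1.1e-09, edgeR) and ENSRNOG00000011946 (2.20, SE 0.30, adjusted p = 8.47e-07). They overlapped for ENSRNOG00000009342 (1.77, SE 0.43, adjusted p = 0.002) and ENSRNOG00000050024 (3.04, SE 0.87, adjusted p = 0.00834). For ENSRNOG00000050024, TGFb-alone replicates 2, 4 and 6, at 0 to 3.478, lay within the untreated range of 0 to 10.33. Sora libraries were lower than those with TGFb alone for ENSRNOG00000025184 and ENSRNOG00000011946 and higher for the other two. The TGFb comparison shares its TGFb-alone libraries with the Sora comparison, so the values are set side by side and not related to each other.

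The Sora libraries varied more among themselves than those of the other drugs. The biological coefficient of variation, estimated by edgeR within each group alone, was 23.3% with Sora, 17% with Nint, 14.7% with Pirf, 21.9% with TGFb alone and 19.4% in untreated slices at 72. These values describe 6 libraries each and were not tested. Sora replicates 5 and 6 had the lowest scaling factors of the group, 0.9679 and 0.9927, against 1.0435 to 1.0715 in the other 4. They also had the highest shares of counts in the 10 most abundant genes, 14.33% and 14.05%, against 11.64% to 13.81%.

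In a principal component analysis of the 12 libraries the first component held 23.4% of the variance and averaged 19.14 ± 21.2 with Sora and -19.14 ± 23.4 with TGFb alone (SD, n = 6 each). The groups overlapped on it. Sora replicates 3, 5 and 6 scored -0.26, -1.81 and 7.73, below TGFb-alone replicate 5 at 13.3. The second component, with 20.4%, did not set the groups apart, with means of -3.705 ± 30.6 with Sora and 3.703 ± 25.7 with TGFb alone. Replicate 3 had the lowest score of its group and replicate 5 the highest in both groups, at -49.26 and 37.7 with Sora and at -38.47 and 38.7 with TGFb alone.

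Among all 30 libraries at 72, the first component averaged 2.218 ± 19.5 with Sora, 30.14 ± 4.05 with Nint, -56.95 ± 7.19 with Pirf, 25.44 ± 15.9 with TGFb alone and -0.8433 ± 14.8 in untreated slices. The Sora libraries ran from -26.9 to 24.21 on this axis, and replicates 3, 5 and 6 lay within the range of TGFb alone. On the second component all Sora libraries, at 17.1 or less, were below all untreated libraries, at 39.45 or more. The same held for every other group with TGFb, whose highest scores were 7.12 with Nint, -2.28 with Pirf and 5.68 with TGFb alone.

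**Figure D4:**
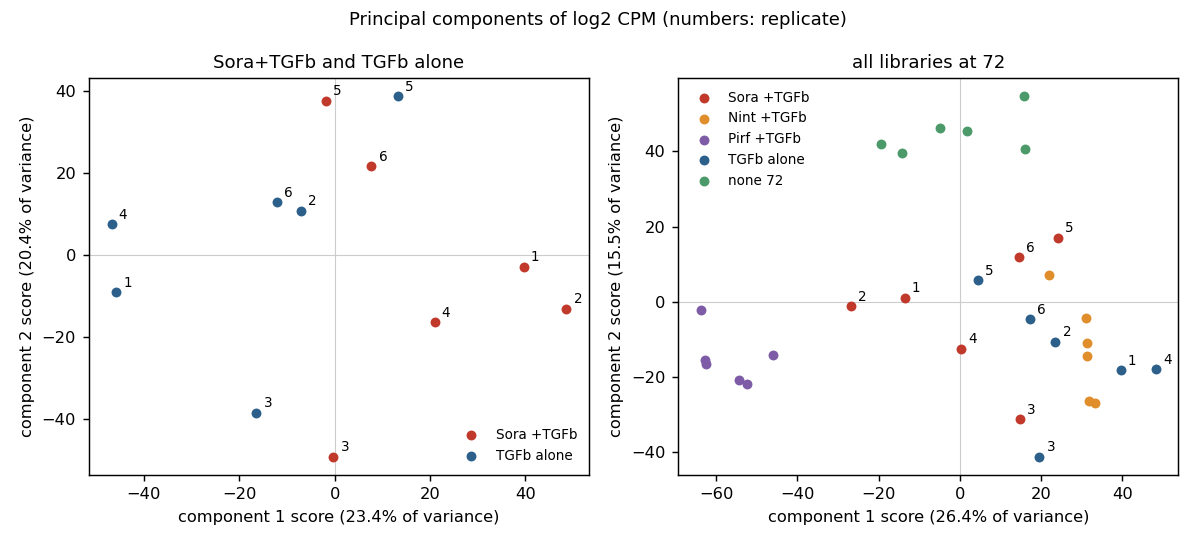
Principal component scores of log2 CPM for the 12 libraries of the comparison (left) and for all 30 libraries at time 72 (right); numbers give the replicate for Sora with TGFb (red) and TGFb alone (blue). On the left the groups overlap along component 1, and replicates 3 and 5 mark the ends of component 2 in both groups.

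Sora and Nint, both kinase inhibitors, were compared directly in slices with TGFb. The labels give no dose for either, so the test compares these slices and not the drugs at matched doses. Sora and Nint differed in 1720 genes (11%), with 1006 higher (6.43%) and 714 lower (4.56%) with Sora. Without scaling factors 2148 were higher and 432 lower. The number was 2819 without Sora replicate 5, 942 to 996 without any one of Sora replicates 1 to 4, and 1057, 1096 and 1111 without Nint replicates 5, 3 and 1. For comparison, Sora and Pirf differed in 6592 genes (42.1%).

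By the same rule, applied here after the data were seen, 4 IDs were taken from 554 eligible genes of the Sora and Nint comparison. One of them was ENSRNOG00000050024 (log2 fold change 2.33, SE 0.68, adjusted p = 0.027), whose call against Nint was lost in 8 of 21 alternatives (adjusted p up to 0.111), among them DESeq2, limma on the deposited log2 CPM (log2 fold change 3.12) and the fits without Sora replicate 1, 3 or 4 or Nint replicate 4 or 5. The calls of the other 3 against Nint held in all 21.

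ENSRNOG00000010253 had normalized counts of 48.21 to 180.8 with Sora (median 85.32), against 17.19 to 36.07 with Nint (median 23.55). The groups did not overlap, and Sora replicate 2, at 180.8, stood above the other 5 Sora libraries. The log2 fold change against Nint was 1.97 (SE 0.36, adjusted p = 0.000891, edgeR). Against TGFb alone, at 38.87 ± 17 (SD, n = 6), it was 1.28 (SE 0.35, adjusted p = 0.0126), with overlapping groups. Sora was not resolved from untreated slices at 72, with 94.03 ± 45 and 100.7 ± 56.9 (log2 difference -0.10, 95% interval -0.79 to 0.58, adjusted p = 0.857).

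ENSRNOG00000037085 had normalized counts of 2.735 to 62.43 with Sora (median 5.695), against 90.32 to 195.7 with Nint (median 151.6). Sora replicates 5 and 6 held 62.43 and 29.45 and the other 4 at most 5.739. The log2 fold change against Nint was -3.00 (SE 0.58, adjusted p = 0.00125, edgeR). It was -3.97 without Sora replicate 5, and -3.85 with limma-voom and with limma on the deposited log2 CPM. By edgeR on all libraries it was -2.48 against TGFb alone (SE 0.57, adjusted p = 0.00369) and -2.15 against untreated slices at 72 (SE 0.57, adjusted p = 0.00606), with overlapping groups in both. Sora, with a mean of 18.56 ± 23.7, was not resolved from Pirf, with 17.11 ± 4.55 (SD, n = 6 each; log2 difference for Sora minus Pirf 0.13, 95% interval -1.10 to 1.35, adjusted p = 0.887). TGFb alone and untreated slices at 72 were not resolved for this ID (log2 difference 0.32, 95% interval -0.74 to 1.39, adjusted p = 0.709).

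ENSRNOG00000004393 had normalized counts of 20.18 to 134.3 with Sora (median 62.05), against 177.6 to 609.4 with Nint (median 275.3). Sora replicates 5 and 6 were again the highest of their group, at 134.3 and 110.2, yet below all Nint libraries. The log2 fold change against Nint was -2.12 (SE 0.45, adjusted p = 0.00291, edgeR). It was -1.31 against TGFb alone (SE 0.44, adjusted p = 0.0406), with overlapping groups, and 1.32 against Pirf (SE 0.47, adjusted p = 0.0236). Sora was not resolved from untreated slices at 72, with 71.91 ± 43.5 and 70.36 ± 30.7 (log2 difference 0.04, 95% interval -0.88 to 0.95, adjusted p = 0.967).

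Slices with TGFb and Sora were last compared with untreated slices at 72, to see what differed where both the growth factor and the drug were present. They differed in 3913 genes (25%), of which 2056 were higher (13.1%) and 1857 lower (11.9%). TGFb alone differed from the same untreated slices in 4130 genes (26.4%). The number with at least a 2-fold change was 691 (4.42%) for Sora with TGFb and 1041 (6.65%) for TGFb alone. Both comparisons use the same untreated libraries, and the difference between these numbers was not tested.

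By the same rule, 4 IDs were taken from 1236 eligible genes of this comparison, and their calls against untreated slices held in all 21 alternatives. ENSRNOG00000050024, described above, was higher (log2 fold change 5.19, SE 0.86, adjusted p = 4.1e-05), by 6.16 with limma-voom and 6.71 with limma on the deposited log2 CPM.

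ENSRNOG00000013535 had normalized counts of 46.54 to 70.78 with Sora (median 56.2), against 0 to 4.594 in untreated slices at 72 (median 1.598). On the log2 scale the difference was 4.98 (SE 0.44, adjusted p = 8.18e-10, edgeR), 5.60 without untreated replicate 4 and 5.66 with limma on the deposited log2 CPM. The Sora mean was 58.42 ± 9.13 and that of TGFb alone 36.77 ± 6.23 (SD, n = 6 each), and all 6 Sora libraries lay above the highest TGFb-alone library, at 46.22. The fitted difference between Sora and TGFb alone was 0.67 (95% interval 0.02 to 1.31 before adjustment) and was not called (adjusted p = 0.152). Nint, at 43.84 ± 10.1, overlapped Sora and was not resolved from it (log2 difference for Sora minus Nint 0.41, 95% interval -0.23 to 1.05, adjusted p = 0.407). Sora was above Pirf, at 11 ± 1.66 (log2 fold change for Sora minus Pirf 2.40, SE 0.34, adjusted p = 1.47e-06).

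ENSRNOG00000013605 had normalized counts of 2.735 to 16.15 with Sora (median 4.724), against 43.37 to 120.3 in untreated slices at 72 (median 84.48). The fitted log2 fold change was -3.73 (SE 0.60, adjusted p = 2.53e-05, edgeR). Sora libraries averaged 6.254 ± 5.12 and those with TGFb alone 3.358 ± 2.78 (SD, n = 6 each), a difference that was not called (log2 difference 0.88, 95% interval -0.61 to 2.37, adjusted p = 0.442). Means of 7.009 ± 4.68 with Nint and 8.602 ± 5.35 with Pirf were also not resolved from Sora, with log2 differences for Sora of -0.21 against Nint (95% interval -1.54 to 1.11, adjusted p = 0.866) and -0.47 against Pirf (95% interval -1.76 to 0.83, adjusted p = 0.583). The means of all 4 groups with TGFb thus stood far below that of untreated slices at 72 for this ID. Untreated slices at 0 had 86.82 ± 57.6 and ranged from 7.983 to 145.7, so that their lowest library lay within the Sora range.

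ENSRNOG00000023870 had normalized counts of 5.532 to 21.32 with Sora (median 9.194), against 54.73 to 142.4 in untreated slices at 72 (median 121.9). On the log2 scale the difference was -3.38 (SE 0.46, adjusted p = 2.17e-06, edgeR). The mean was 10.55 ± 5.87 with Sora and 3.887 ± 2.25 with TGFb alone (SD, n = 6 each). Sora libraries overlapped those with TGFb alone, and the log2 difference of 1.40 (95% interval 0.28 to 2.51 before adjustment) missed the threshold (adjusted p = 0.0787). Sora was not resolved from Pirf, at 15.89 ± 8.91 (log2 difference for Sora minus Pirf -0.58, 95% interval -1.52 to 0.37, adjusted p = 0.328).

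**Figure D5:**
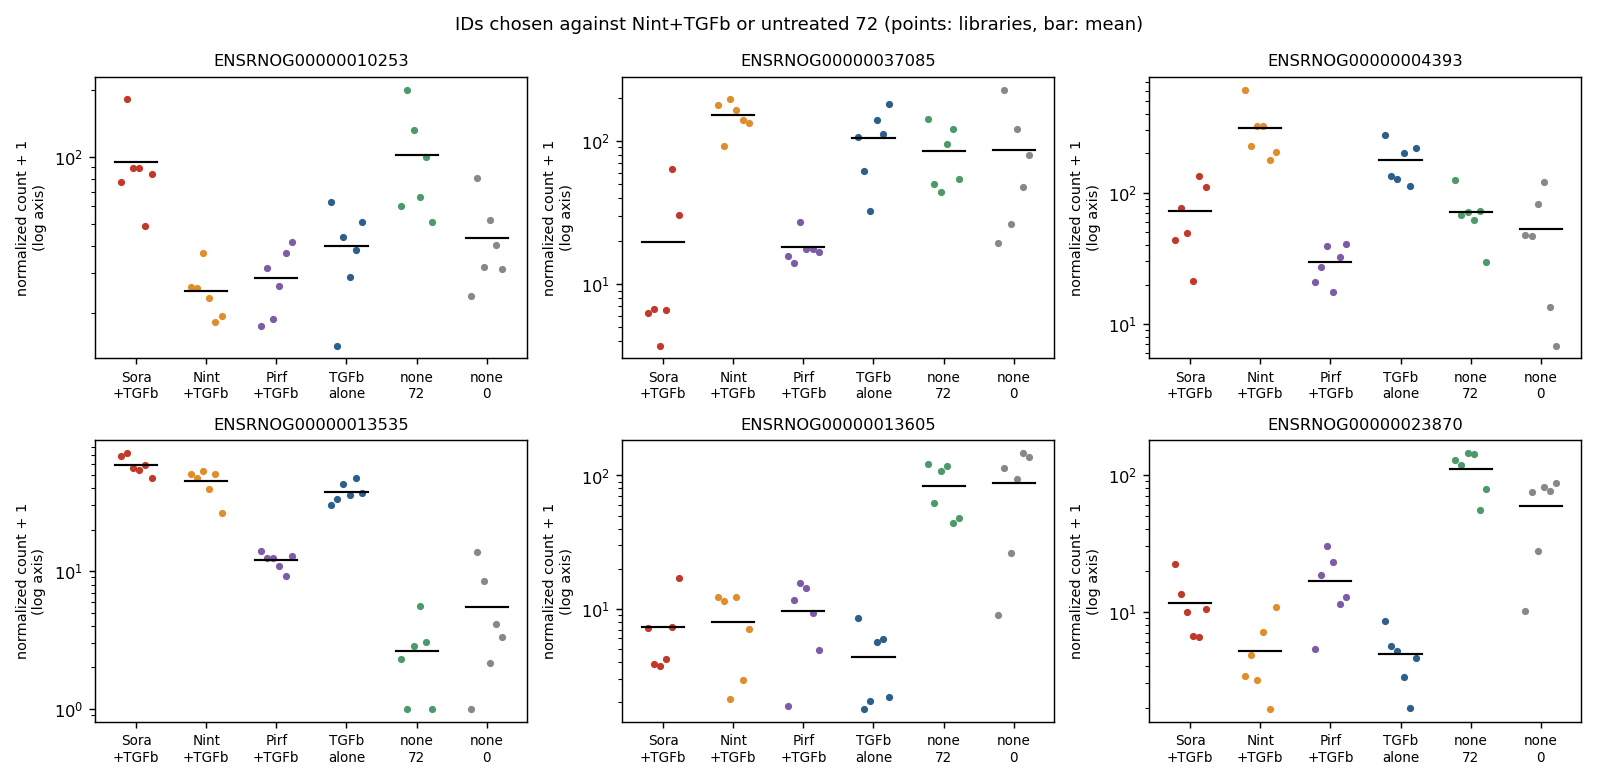
Each panel shows one of 6 further IDs, chosen against Nint (top row) or against untreated slices at 72 (bottom row); points are libraries (6 per group), black bars are group means, and the vertical axis is the normalized count plus 1 on a log axis. In the top row the Sora points lie apart from the Nint points, and in the bottom row they lie apart from untreated slices at 72. The rule that chose the IDs required this separation.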

How the data were processed

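RNA came from an RNeasy 96 column kit, and stranded total-RNA libraries followed ribosomal RNA removal, per the labels' protocols. Per the submitters' processing notes, RSEM, edgeR and the build Rnor_6.0 were used; the sources used here give no aligner, annotation or strand setting. The authors deposited expected counts per gene, unscaled, for 32883 IDs (8.59% of values not whole). RSEM can divide reads among near-identical genes, so such counts are uncertain. The authors also deposited log2 CPM values for 14984 genes, which were checked against the counts and equal edgeR's TMM-scaled values with a prior count of 0.25, to within 4.97e-14.

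Expected counts were rounded to whole numbers (edgeR 4.0.16 under R 4.3.3). After filterByExpr and TMM scaling, a single quasi-likelihood model with 6 group means was fitted to the 36 libraries, and contrasts were tested with glmQLFTest. Standard errors (SE) were derived from the F statistic, as the size of the log2 fold change over its square root. Intervals of 95% use the fit's degrees of freedom, without adjustment for the number of genes. Normalized counts are TMM-scaled to the mean library size. Principal components used log2 CPM with a prior count of 2. Library measures were compared by two-sided exact permutation tests, and functions were tested on simulated data. Alternatives used DESeq2 1.42.0 and limma 3.58.1.

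Comparisons, IDs and lists were chosen with earlier results of these data known. The 41 gene lists by symbol were not used, since no ID could be paired. The rule for IDs is stated with them.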

Additional observations from a re-analysis of the deposited data

Results flagged for a closer look

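In 7 of 72 groups of 6 values looked at (10 IDs in 6 groups, and library measures in the Sora and TGFb-alone groups), 1 library stood far from the other 5. Chance flags about 1 in 20 such groups where values follow a normal distribution. Most values here are untransformed counts of IDs picked from the same data, so the 7 cannot be set against that rate. In 2 of the 7 the library was a Sora one. Sora replicate 2 held 180.8 normalized counts of ENSRNOG00000010253, and Sora replicate 6 held 16.15 of ENSRNOG00000013605. Nint replicate 1 held 609.4 of ENSRNOG00000004393, and Pirf replicate 3 held 26 of ENSRNOG00000037085. In untreated slices at 72, replicate 6 held 14.48 of ENSRNOG00000009342. In untreated slices at 0, replicate 4 held 3.483 of ENSRNOG00000050024, where the other 5 held 0, and replicate 2 held 67.08 of ENSRNOG00000025184.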

How the results depend on the processing

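The comparison of Sora with TGFb alone gave 2406 calls, 1096 higher and 1310 lower. Without scaling factors these were 2173 higher and 684 lower, and without a filter on low counts 1111 were higher and 772 lower. In a fit of the 12 libraries 1423 were called, 668 higher and 755 lower. Against a fold of 1.2 they were 410, 187 and 223, and the totals for Sora minus Nint, Sora minus Pirf, Sora minus untreated and TGFb alone minus untreated were 186, 2520, 1143 and 1779. Without a filter Sora and Nint differed in 1133 genes. With 1 library left out, calls ranged from 1640 to 3232 (757 to 1428 higher, 862 to 1804 lower) for Sora minus TGFb alone, from 942 to 2819 for Sora minus Nint, from 5998 to 6563 for Sora minus Pirf, from 2916 to 4640 for Sora minus untreated and from 3558 to 4054 for TGFb alone minus untreated. The fold test sets a stricter threshold by design, and the causes of the other changes were not tested. Whether replicate numbers pair the samples was not settled. Deviations of same-numbered Sora and TGFb-alone libraries correlated over 0.1 in 2 of 6 pairs (-0.22 to 0.485). Only 1 of 6 Sora libraries, replicate 3 at 0.485, matched its own number best. With the replicate number as a block, 2602 genes were called, 1200 higher and 1402 lower, and the block gave 2047 for Sora minus Nint. No named ID changed direction in any alternative. Fold changes of low IDs were the least precise, with a median standard error of 0.30 in the lowest of the 4 bins by level and 0.07 in the highest.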
